A study of Mus musculus with 3 samples.

Results

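Tnfsf11 encodes RANKL, Tnfrsf11b encodes osteoprotegerin and Tnfrsf11a encodes RANK. These 3 genes were taken by symbol from the 32285 genes of each matrix, and all 3 were present in every library. Raw counts of unique molecular identifiers (UMIs, 1 per captured RNA molecule) were read for them in single cells of mouse hind paws during K/BxN serum transfer arthritis, in which serum of arthritic K/BxN mice is injected into recipient mice and the joints swell. RANKL and osteoprotegerin were compared between osteoblast-like cells, Saa3-high fibroblasts, other Pdgfra cells and tenocyte-like cells by day. RANK was compared between the classes of the myeloid library.

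RANKL is a membrane-bound or shed ligand of the TNF family. It binds RANK on osteoclast precursors, the monocyte-derived cells that fuse into bone-resorbing osteoclasts, and drives their differentiation and survival through TRAF adaptors, NF-kB and the transcription factor NFATc1. Osteoprotegerin is a secreted receptor without a membrane anchor that binds RANKL and keeps it from RANK, so the balance of ligand and decoy is a classical measure of local osteoclast drive. In inflamed joints synovial fibroblasts and T cells are known sources of RANKL beside bone cells, and bone erosion in serum transfer arthritis is known to need RANKL.

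In mm10, the build of the deposited matrices, Tnfsf11 (ENSMUSG00000022015) lies on the minus strand of chromosome 14 at 78277445 to 78308043. Tnfrsf11b (ENSMUSG00000063727) lies on the minus strand of chromosome 15 at 54250619 to 54278484, and Tnfrsf11a (ENSMUSG00000026321) on the plus strand of chromosome 1 at 105780718 to 105847981. The 250 bases before the RefSeq gene start are shown for the ligand and the receptor, since the ligand lay in few stromal cells and the receptor in many myeloid classes. They were read from RefSeq on GRCm38.p6, whose gene starts can differ from those of the annotation above (the Tnfrsf11a window ends inside the gene as located there), and where 2 of the 3 genes matched, and are written 5′ to 3′ on the gene's strand. The windows are chr14:78308044-78308293 (minus) and chr1:105780473-105780722 (plus), and capitals mark TATAA on either strand, which in Tnfsf11 is 2 overlapping matches.
Tnfsf11: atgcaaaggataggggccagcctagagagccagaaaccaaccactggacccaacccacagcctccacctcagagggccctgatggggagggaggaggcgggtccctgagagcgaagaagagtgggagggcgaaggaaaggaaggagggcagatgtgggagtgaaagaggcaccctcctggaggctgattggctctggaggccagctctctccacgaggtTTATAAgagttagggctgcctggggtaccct
Tnfrsf11a: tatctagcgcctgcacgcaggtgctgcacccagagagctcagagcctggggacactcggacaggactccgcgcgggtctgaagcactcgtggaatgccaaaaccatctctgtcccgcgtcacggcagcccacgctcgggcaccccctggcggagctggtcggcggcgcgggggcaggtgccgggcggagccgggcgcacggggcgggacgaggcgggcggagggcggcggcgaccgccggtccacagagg
The TATAA of Tnfsf11 began 30 bases before the gene start, and the window held 4 CpG dinucleotides at 60.4% G and C. The Tnfrsf11a window held no TATAA and 31 CpG at 73.6% G and C. Of 32851 windows of the same length, 22.8% held TATAA on either strand, and the median CpG count was 6 (quartiles 2 and 16).

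The series holds 1 library per group. The day 0 stromal library holds CD45- cells of paws labelled as steady state, the day 5 stromal library CD45- cells at day 5 of serum transfer arthritis, and the day 9 myeloid library CD45+CD11b+Ly6G- cells at day 9. Skin, muscle and tendon were stripped from the paws before digestion, per the labels. Strain, genotype, age, sex and the number of mice behind a library are not given in the sources used here. Cells needed 500 genes and 1000 UMIs or more with mitochondrial UMIs no higher than 10%, and 7368, 11172 and 5945 passed at day 0, day 5 and day 9, with a median of 9802, 9304 and 6741 UMIs per cell. Libraries shared 14 to 25 cell barcodes per pair, and Scrublet called 1 doublet in all, so it has not worked as a doublet caller here. With 1 library per group no test between days or sorts was possible: every interval below is a 95% interval for counting error alone, and no value carries an error between mice. A level is in CPM, the gene's UMIs scaled to the class total, and since each captured molecule gives 1 count at its 3′ end, levels of different genes are compared without dividing by length. Stromal cells of both days were clustered together, the myeloid library alone, and clusters were named from marker lists.

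Most RANKL UMIs lay in osteoblast-like cells at day 0 and in fibroblasts at day 5. The osteoblast-like cluster was led by Bglap, Bglap2, Ibsp, Spp1 and Mmp13, genes of mineralizing bone and its turnover. It held 169 of the 210 Tnfsf11 UMIs of the day 0 library, which is 80.5% (74.5 to 85.6, Clopper-Pearson) from 7.84% of the cells. At day 5 it held 148 of 868 UMIs, or 17.1%, from 6.02% of the cells. The other Pdgfra cells, the fibroblasts under the Saa3 gate of 5 UMIs per 10000, held 17.6% at day 0 and 59.2% at day 5. They made up 74.2% and 77.0% of the cells, so both shares of UMIs lay below their shares of cells. The Saa3-high fibroblasts at or above the gate held 22.9% at day 5, from 3.80% of the cells.

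**Figure D1:**
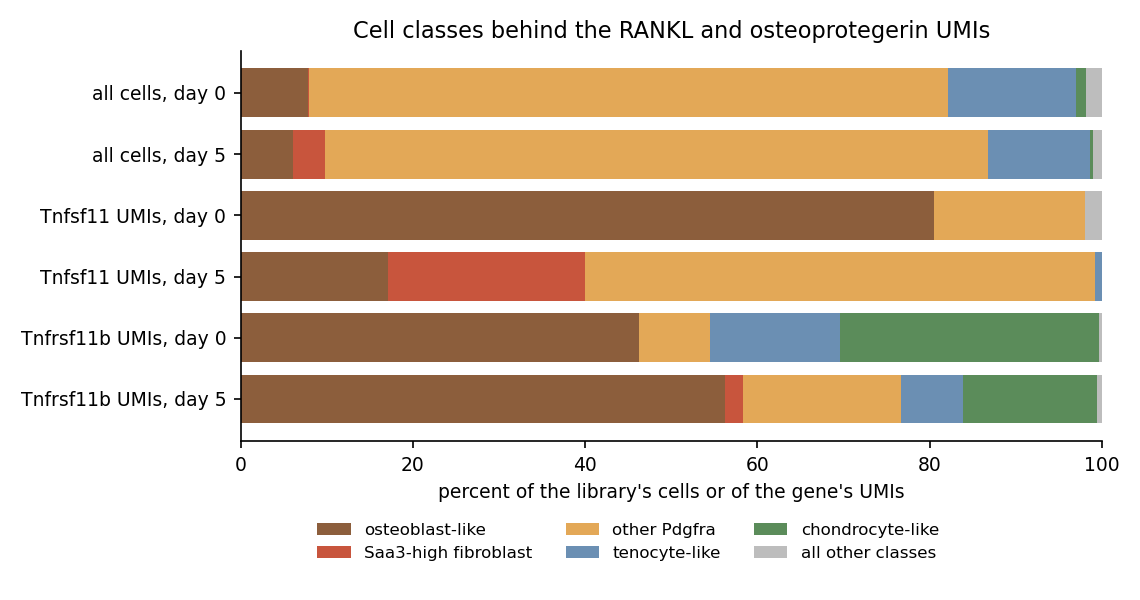
Share of each stromal library's cells (upper pair of bars) and of its Tnfsf11 and Tnfrsf11b UMIs (middle and lower pairs) by cell class, in percent, for day 0 and day 5. Osteoblast-like cells give 80.5% of Tnfsf11 UMIs at day 0 and 17.1% at day 5, and 46.2% and 56.2% of Tnfrsf11b UMIs.

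In osteoblast-like cells the RANKL level was 31.0 CPM (26.5 to 36.0, 578 cells) at day 0 and 22.1 CPM (18.7 to 26.0, 672 cells) at day 5. The intervals do not overlap, and the ratio of day 5 to day 0 was 0.714 (0.569 to 0.895), a 1.40-fold lower level. The median depth was alike on both days, at 7894 and 7828 UMIs per cell. Thinning to 2000 UMIs per cell left 29 Tnfsf11 UMIs at day 0 and 34 at day 5. They lay in 4.69% and 4.65% of cells (13.5% and 11.8% unthinned). The thinned ratio was 1.01 (0.599 to 1.72). With so few UMIs its interval holds both no difference and 0.714, so it does not decide between them. Few cells held many of the UMIs: 10 cells with 5 or more held 39.6% at day 0, and 4 such cells held 16.9% at day 5. The ratio was 0.855 as a mean of each cell's CPM. Among alternatives chosen after seeing the data, it was 0.537 without sub-cluster 6 (below) and 0.878 with equal weight for each sub-cluster.

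In other Pdgfra cells RANKL was at 0.639 CPM at day 0, from 37 UMIs in 5466 cells, and reached 5.59 CPM (5.12 to 6.10) at day 5, from 514 UMIs in 8600 cells. That is 8.75-fold higher (6.26 to 12.6) at day 5. The ratio was 4.45 with classes gated on single genes, 4.71 in cells thinned to 2000 UMIs, 5.47 as a mean of each cell's CPM and 17.1 at resolution 0.5. A difference of at least 1.5-fold upward was found for 10.4% of the 15522 genes with at least 20 UMIs in this comparison and one downward for 7.14%; Tnfsf11 was the 1 member called there, Tnfrsf11b lay within 1.5-fold and Tnfrsf11a had 2 UMIs in all. The share of cells with a UMI was 0.549% at day 0 and 2.01% at day 5, and 0.166% and 0.568% at 2000 UMIs, with median depths of 10018 and 9395 UMIs. Tenocyte-like cells at similar depth (9828 and 8463) gave 0 of 1100 cells at day 0, which allows a share of up to 0.273%, and 0.380% at day 5 (7 UMIs, 0.549 CPM). Chondrocyte-like cells had no Tnfsf11 UMI on either day, which in so few cells allows up to 4.01 and 6.70 CPM.

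Saa3-high fibroblasts at day 5 stood at 27.1 CPM (23.5 to 31.1), from 199 UMIs in 425 cells. Saa3 encodes an acute-phase serum amyloid protein that inflamed fibroblasts make. Their RANKL level was 4.85-fold (4.09 to 5.72) that of the other Pdgfra cells of the same library, where 7.90% of 14905 genes were at least 1.5-fold higher and 25.6% at least 1.5-fold lower. Against osteoblast-like cells of day 5 the ratio was 1.23 (0.986 to 1.53), so the levels of these classes do not differ beyond counting error. Of the 199 UMIs, 153 lay in cluster 11, 24 in cluster 16 and 19 in cluster 22, which are described below. In any other cluster Saa3-high cells numbered at most 16, with at most 2 Tnfsf11 UMIs. The class level is therefore mainly that of clusters 11, 16 and 22. Inside cluster 22 the intervals of Saa3-high and other cells overlapped, at 41.2 CPM (24.8 to 64.4) and 41.8 CPM (34.4 to 50.3). Inside clusters 11 and 16 the Saa3-high cells stood higher, with intervals that do not overlap. The levels were 28.0 CPM (23.7 to 32.8) against 17.5 CPM (15.4 to 19.7) in cluster 11. In cluster 16 they were 46.3 CPM (29.7 to 69.0, 21 cells) against 22.8 CPM (18.0 to 28.4). Those 21 cells had 24 UMIs in 9 cells, at a median depth of 26053 UMIs against 3098. Thinned to 2000 UMIs, the shares with a UMI overlapped in cluster 16, at 6.25% (0.158 to 30.2, 1 of 16 cells) and 3.66% (1.49 to 7.41). In cluster 11 the thinned shares did not overlap, at 6.02% (3.61 to 9.35) and 2.28% (1.43 to 3.43). The share of Saa3-high cells with a UMI was 14.8% at a median depth of 15877 UMIs and 5.11% at 2000 UMIs, close to the 4.65% of osteoblast-like cells. At day 0 only 6 cells passed the gate and none had a Tnfsf11 UMI, which at that depth allows up to 42.4 CPM, so the level of such cells at day 0 was not measurable.

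**Figure D2:**
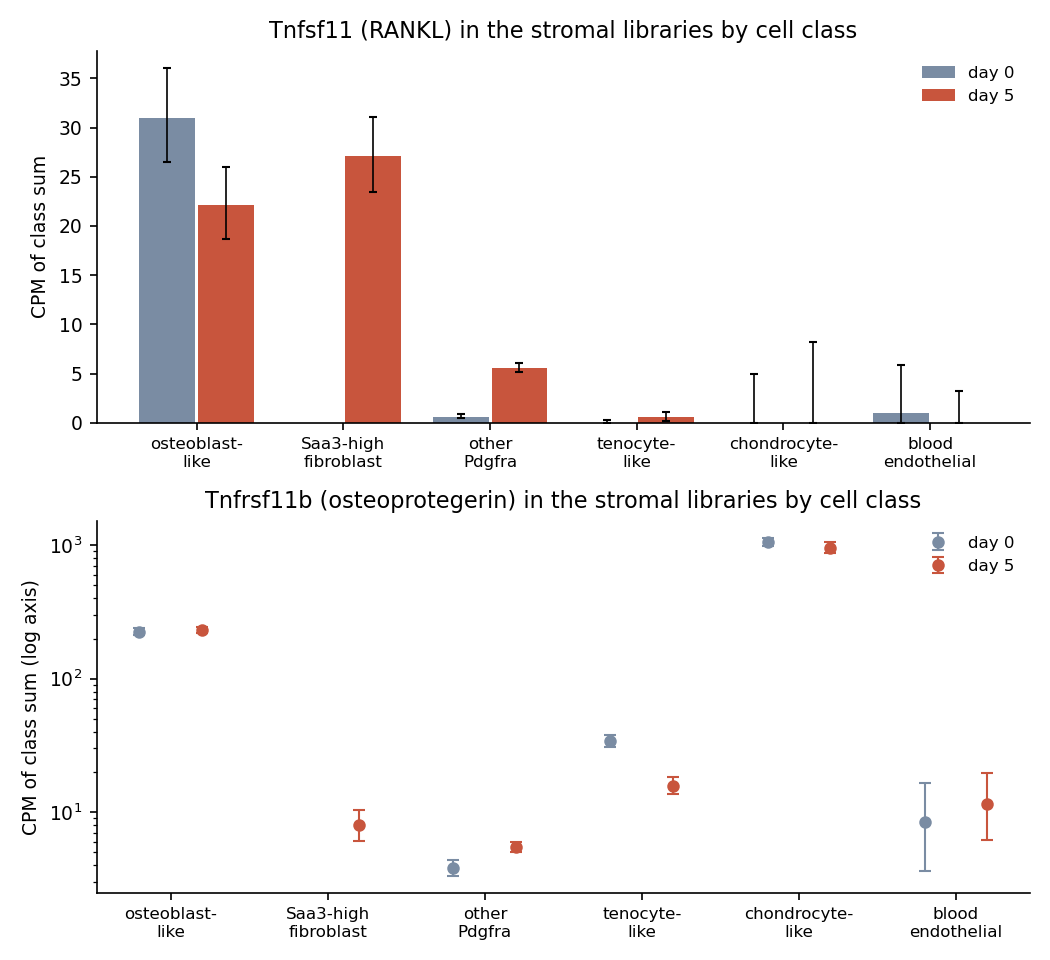
Tnfsf11 (top, linear axis) and Tnfrsf11b (bottom, log axis) in CPM of the class sum for the stromal classes at day 0 and day 5; bars or points are class levels and lines 95% Poisson intervals, with 1 library per day. The 6 Saa3-high cells of day 0 are not drawn. RANKL is at 27.1 CPM in Saa3-high fibroblasts at day 5 and osteoprotegerin at 1066 and 958 CPM in chondrocyte-like cells.

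Over all day 5 fibroblasts, which pools clusters of different RANKL level, RANKL was higher in cells with Saa3. Cells without a Saa3 UMI stood at 4.72 CPM (8032 cells, 395 UMIs). Cells with some Saa3 but under 2 UMIs per 10000 stood at 14.4 CPM (11.7 to 17.6), and cells with 2 to under 5 at 15.2 CPM. Above the gate the levels were 23.8 CPM at 5 to under 20, 23.5 CPM at 20 to under 50 and 31.9 CPM (25.9 to 38.9) at 50 and over. The interval of the lowest step lies below all the others, while neighbouring steps above 0 overlap. In cluster 22, with the highest RANKL level, Saa3-high and other cells did not differ beyond counting error, as given above. In cluster 11 the Saa3-high cells stood higher, beyond counting error. In cluster 16 they stood higher in CPM, but from few and much deeper cells, and the thinned shares overlapped.

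By cluster, RANKL of day 5 fibroblasts lay in 3 of 16 fibroblast-like clusters. Cluster 11 (Saa3, Ptx3, Lcn2, Ccl2 and Ccl7, acute-phase and chemokine genes) stood at 20.2 CPM (18.4 to 22.3) from 419 UMIs in 1279 cells. Cluster 16 (Fabp5, Mki67, Stmn1, Birc5 and Cenpa, in part cell division genes) stood at 25.8 CPM (21.1 to 31.3) in 288 cells. Cluster 22 (Timp1, Mmp3, Inhba, Chil1 and Slpi, matrix protease and inhibitor genes among them) stood highest, at 41.7 CPM (34.9 to 49.5) in 228 cells. These clusters were nearly absent at day 0, with 20, 15 and 3 cells and 1 Tnfsf11 UMI in all. Cluster 9 (H19, Edil3, Megf6, Snhg11 and Dio2) had 5.06 CPM at day 0 and 4.68 at day 5, with 15 of its 37 day 5 UMIs in 1 cell, and the other 12 were at or below 1.11 CPM on both days.

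Together, clusters 11, 16 and 22 held 653 Tnfsf11 UMIs in 1795 cells (23.5 CPM) at day 5 and the other fibroblast-like clusters 60 in 7230 (0.840 CPM). The 3 clusters were singled out for this level, so the gap is a description. In these 3 clusters 199 cells (11.1%) had a Tnfsf11 UMI, and the 44 cells with at least 5 UMIs held 52.2% of the UMIs. The day 5 to day 0 ratio over the fibroblasts outside them was 1.34, a value that the choice of clusters bears on, and nothing is read from it. In that comparison 9.61% of 15227 genes were at least 1.5-fold higher and 6.82% at least 1.5-fold lower. Clusters 2, 15 and 16 had markers of another cell list (Rgs5, S100a8 and S100a9, cell division genes) among their 10 leading genes, which is why the levels are also given by cluster.

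**Figure D3:**
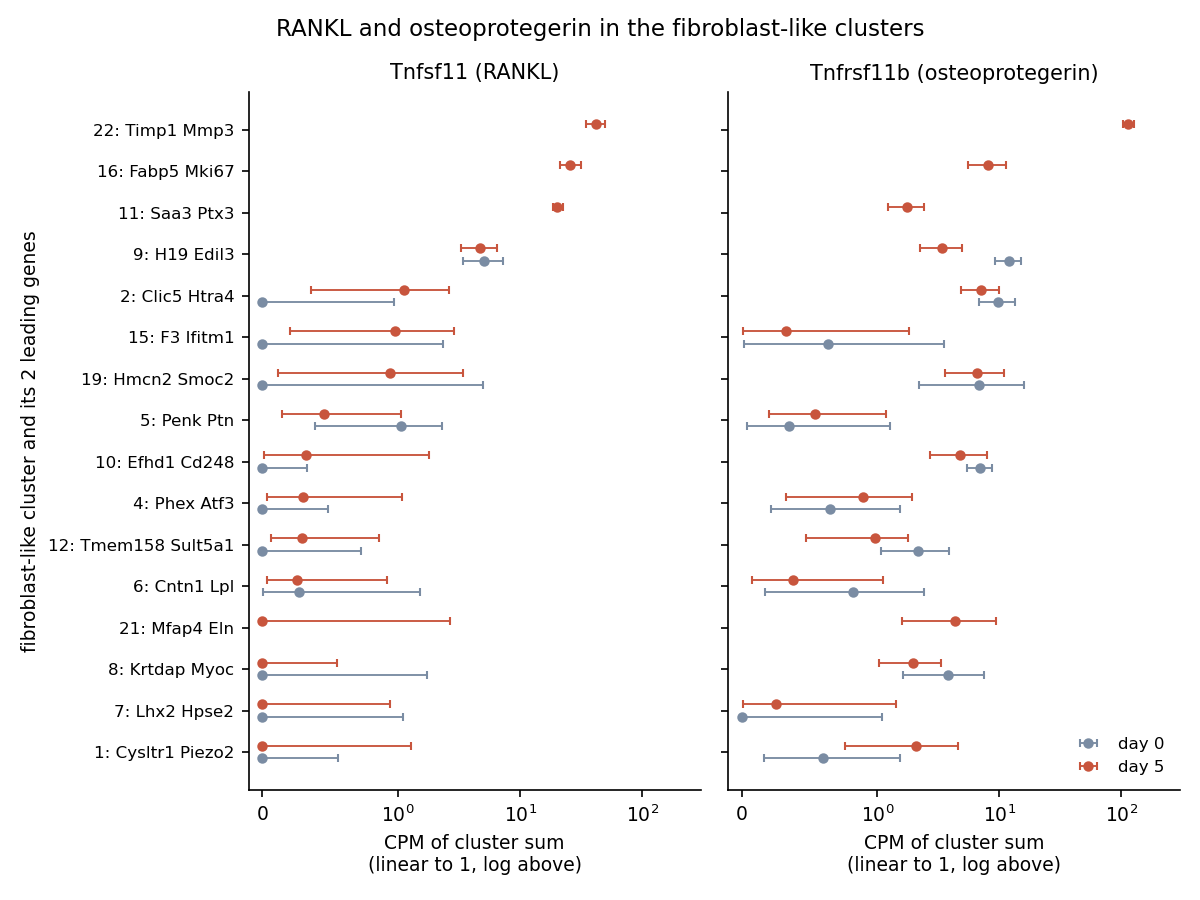
Tnfsf11 (left) and Tnfrsf11b (right) in CPM of the cluster sum (axis linear to 1 and log above) for the 16 fibroblast-like clusters, each named by number and its 2 leading genes, at day 0 and day 5 where the cluster has at least 50 cells; lines are 95% Poisson intervals. Clusters 22, 16 and 11 stand apart for RANKL at 41.7, 25.8 and 20.2 CPM, and cluster 22 alone for osteoprotegerin at 114 CPM.

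Markers of other cells were read in the same sums. The leukocyte list (Ptprc, Tyrobp, Fcer1g, Cd52 and Coro1a) summed to 0.637 to 2.69 CPM in the Saa3-high, other Pdgfra, osteoblast-like and tenocyte-like cells and clusters 11, 16 and 22 of day 5, and Ptprc was at 0 in clusters 11 and 22 and in osteoblast-like cells. The osteoblast list summed to 80.3 CPM in cluster 11, 1002 in cluster 16 and 2932 in cluster 22, against 29081 in osteoblast-like cells. Ibsp was at 15.7, 345 and 159 CPM in the 3 clusters and at 8228 CPM in osteoblast-like cells, and Bglap at 3.50 CPM in cluster 22. The part of osteoblast RNA in the RANKL levels of the 3 clusters was not tested.

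Within the osteoblast-like cells the sub-clusters with the highest RANKL level were not those with the highest osteoprotegerin level. Sub-cluster 6 (Saa3, Mmp13, Srgn, Chil1 and Timp1) had the highest RANKL level, 81.4 CPM (52.7 to 120) in 19 cells at day 0 and 98.4 CPM (74.3 to 128) in 52 cells at day 5. Sub-cluster 5 (Postn, Col16a1, Krt75, Col3a1 and Col12a1, collagen and periosteal matrix genes) had 69.7 CPM (56.3 to 85.4) at day 0 and 35.7 CPM (23.3 to 52.3) at day 5. Both carried much Mmp13, the collagenase of bone turnover, at 13243 and 3116 CPM over both days. Sub-clusters 1 and 2, led by Npy, Sparcl1 and Thbs4 and by Car3, Col11a2 and the osteocyte gene Dmp1, had the lowest RANKL levels among sub-clusters with at least 15 cells in a library, 6.41 and 13.1 CPM at day 0 and 10.1 and 7.54 CPM at day 5. The sub-clusters were made from all genes, the 3 members included, so these values are a description.

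Osteoprotegerin was highest in the sub-clusters with little RANKL. It was at 656 CPM on day 0 and 812 on day 5 in sub-cluster 1, which it helps to define, and at 352 and 286 CPM in sub-cluster 2. In sub-cluster 5 it was at 44.2 and 41.2 CPM, and in sub-cluster 6 at 19.5 CPM (7.17 to 42.5) and 91.4 CPM (68.3 to 120). Sub-cluster 6 thus had the lowest osteoprotegerin level at day 0 and not at day 5, and sub-cluster 3, with 9 cells over both days, had no Tnfsf11 UMI. Sub-clusters 0 (Crabp1, Caln1 and Snhg11) and 4 (C3, Clec3b and Pi16) lay between for RANKL, at 19.7 and 15.8 CPM at day 0 and 15.3 and 13.9 CPM at day 5. Their osteoprotegerin also lay between at day 0, at 82.9 and 68.2 CPM. At day 5 it was at 84.5 and 124 CPM, of which the first was below the level of sub-cluster 6. Cells with UMIs of both genes were few: 17 at day 0, where 78 cells had Tnfsf11 and 208 had Tnfrsf11b, and 13 at day 5 of 79 and 235.

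**Figure D4:**
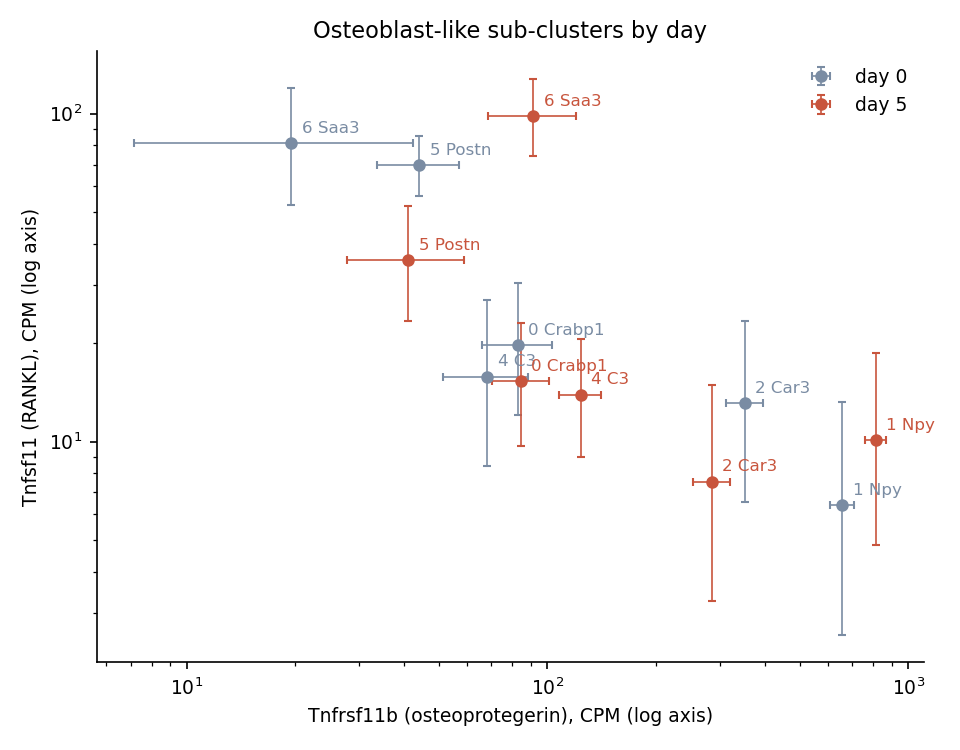
Tnfsf11 against Tnfrsf11b in CPM (both axes log) for the osteoblast-like sub-clusters with at least 15 cells in a library, each labelled by its number and leading gene, at day 0 and day 5; lines are 95% Poisson intervals. Sub-clusters 5 and 6 have high RANKL and sub-cluster 1 has the highest osteoprotegerin, 656 and 812 CPM, with RANKL at 6.41 and 10.1 CPM.

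Osteoprotegerin was a gene of cartilage and bone cells on both days. Chondrocyte-like cells had by far the highest level, 1066 CPM (993 to 1142, 83 cells) at day 0 and 958 CPM (869 to 1053, 43 cells) at day 5, with a UMI in 80.7% and 81.4% of cells. The ratio of day 5 to day 0 was 0.899 (0.798 to 1.01), within counting error; 15.0% and 15.7% of 6067 genes were at least 1.5-fold higher and lower there. This small class was led by Cytl1, Ecrg4, Snorc, Col2a1 and Acan, cartilage genes, with Tnfrsf11b itself among its 10 leading genes, and it also carried Ibsp at 3957 CPM on day 0 and 14573 on day 5. Osteoblast-like cells came next at 225 CPM (212 to 238) and 232 CPM (221 to 244), a ratio of 1.03 (0.959 to 1.12). In that comparison 7.66% of 12055 genes were at least 1.5-fold higher and 5.41% lower. The ratio depends on how the class is drawn: in cells gated on Ibsp alone it was 0.760 (0.709 to 0.814). The order chondrocyte-like, osteoblast-like, tenocyte-like, other Pdgfra held on both days with intervals that do not overlap between neighbours.

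Tenocyte-like cells had 34.2 CPM (30.9 to 37.7) of Tnfrsf11b at day 0 and 15.8 CPM (13.7 to 18.2) at day 5, a 2.16-fold lower level (1.82 to 2.57). In this comparison 8.43% of 12627 genes were at least 1.5-fold lower and 9.83% higher. The class joins 2 clusters of very different level whose cell numbers differed by day. Cluster 0 (Angptl7, Clu, Fibin, Slurp1 and Cilp2) was at 40.4 CPM (36.6 to 44.6, 888 cells) and 25.6 CPM (22.1 to 29.5, 755 cells). Cluster 3 (Coch, Fmod, Wif1, Thbs4 and Kera) was at 2.58 CPM in 212 cells and 1.55 CPM in 562 cells. Within cluster 0 the level was 1.58-fold lower at day 5 (1.33 to 1.89). The level itself depends on which cells are grouped as tenocytes: at day 0 it was 7.05 CPM with the looser cell filter, 11.6 at resolution 2.0, 12.2 with doublets removed by score, 95.6 with the stricter filter and 108 at resolution 0.5. With the looser filter the class ratio was 1.04 (0.727 to 1.51).

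In other Pdgfra cells osteoprotegerin was at 3.82 CPM (3.33 to 4.36) at day 0 and 5.51 CPM (5.04 to 6.02) at day 5, a ratio of 1.44 (1.23 to 1.70). With classes gated on single genes the direction turned, to 0.834 (0.751 to 0.927). Cluster 22 held 358 UMIs in 56 of its 228 cells at day 5, at 114 CPM (103 to 126), with 83.8% of them in 23 cells. The fibroblasts without clusters 11, 16 and 22 were 1.96-fold lower at day 5, at 1.96 against 3.85 CPM. Those clusters were singled out after their values were seen, were nearly absent at day 0 and held 426 Tnfrsf11b UMIs at day 5. The choice of clusters therefore bears on the 1.96-fold value, and nothing is read from it. Cluster 11, the Saa3 cluster with the most RANKL UMIs, had 1.74 CPM (1.22 to 2.41) of osteoprotegerin, and cluster 16 had 8.02 CPM. Of the clusters with both days, cluster 9 had 11.9 CPM (9.22 to 15.0) at day 0 and 3.41 CPM (2.25 to 4.97) at day 5, which do not overlap, while cluster 2 (9.72 and 7.10 CPM) and cluster 10 (6.93 and 4.80 CPM) had overlapping intervals.

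Over all stromal cells, which follows the mix of cells sorted as well as the level per cell, RANKL stood 2.64-fold (2.27 to 3.08) higher at day 5, with 7.19 against 2.73 CPM. Osteoprotegerin had 34.4 CPM at day 0 and 22.9 at day 5, a ratio of 0.665 (0.631 to 0.702). At least 1.5-fold higher were 9.41% of 16285 genes and lower 8.82%. Chondrocyte-like cells made up 1.13% of cells at day 0 and 0.385% at day 5 and held 30.0% and 15.5% of the osteoprotegerin UMIs.

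The ligand stood below its decoy over all osteoblast-like cells on both days and above it over all Saa3-high fibroblasts at day 5. Inside the osteoblast-like cells the order was not uniform: at day 0 sub-cluster 5 had 93 ligand and 59 decoy UMIs and sub-cluster 6 had 25 and 6, and at day 5 they had 26 and 30, and 56 and 52. Osteoblast-like cells had 0.138 Tnfsf11 UMIs per Tnfrsf11b UMI (0.117 to 0.162) at day 0 and 0.0951 (0.0798 to 0.113) at day 5. Other Pdgfra cells had 0.167 (0.115 to 0.238) at day 0 and 1.01 (0.895 to 1.15) at day 5, and Saa3-high fibroblasts 3.37 (2.51 to 4.59) at day 5. The Saa3-high cells were not uniform either. In cluster 22 they had 19 ligand and 45 decoy UMIs in 33 cells, with 25 of the decoy UMIs in 1 cell. In clusters 11 and 16 they had 153 and 11, and 24 and 1. The clusters with RANKL differed widely at day 5: the ratio was 11.6 (8.27 to 16.8) in cluster 11, 3.22 (2.15 to 4.95) in cluster 16 and 0.366 (0.297 to 0.448) in cluster 22, with no overlap between them. Over all stromal cells the ratio was 0.0792 at day 0 and 0.314 at day 5. Of the 8600 other Pdgfra cells at day 5, 173 had the ligand, 179 the decoy and 9 both. The number of cells with both that independent detection would give was not computed, here or for the osteoblast-like cells.

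The wider pathway was read through lists of ligands that promote osteoclasts, of receptors and mediators known to act on Tnfsf11 transcription, of restraining genes and of proteases that release RANKL from the cell surface. In Saa3-high fibroblasts against other Pdgfra cells at day 5, the ligand list had 5 members at least 1.5-fold higher and 5 lower of 13 with at least 20 UMIs, beside 7.90% higher and 25.6% lower of all genes, with a median log2 ratio of 0.45 against -0.16 over all genes. The same all-gene shares apply to the other 3 lists in this comparison. Il6, a cytokine known to raise RANKL in stromal cells, was at 212 against 51.1 CPM (4.16-fold), while Csf1, the growth factor of osteoclast precursors, was at 148 and 172 CPM and Cxcl12, a chemokine for them, at 3856 and 2833 CPM, both within 1.5-fold. Ptn (1.95-fold) and Tnfsf12, which encodes TWEAK (1.81-fold), were lower.

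The receptor and mediator list had 6 members higher and 2 lower of 18 in that comparison, at a median of 0.43. Ptgs2, which makes prostaglandin precursors, was at 145 against 64.2 CPM (2.26-fold), and Ptges, the prostaglandin E2 synthase, was 2.15-fold higher. Il1r1, the interleukin 1 receptor, was 1.73-fold and Osmr, the oncostatin M receptor, 1.56-fold higher, and Nr3c1, the glucocorticoid receptor, 1.57-fold lower. Of the restraining genes 3 were higher and 3 lower of 9, with the Wnt antagonist Sfrp1 at 472 against 164 CPM (2.87-fold), Fstl1 1.79-fold higher and Slit3 1.56-fold lower. Of the 5 proteases Mmp3 was 5.60-fold higher, at 1928 against 344 CPM, Mmp14 was within 1.5-fold, and 1 was lower. In clusters 11, 16 and 22 against the other fibroblast-like clusters the receptor and mediator list had 10 of 18 higher and 4 lower, against the 14.2% and 25.3% of all genes, with the same 4 genes named above at 1.81-fold to 2.65-fold.

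Between days most of these genes lay within 1.5-fold. In other Pdgfra cells 7 of 44 measured members of the 4 lists were higher at day 5 and none lower, led by Mmp3 at 344 against 87.3 CPM (3.94-fold) and with Sfrp1 at 164 against 109 CPM. In osteoblast-like cells 7 of 40 were higher and 2 lower. Csf1 was 1.57-fold lower there (83.2 against 130 CPM) and Mmp3 2.14-fold higher, while Pth1r, the parathyroid hormone receptor through which RANKL is known to be induced in osteoblasts (862 and 805 CPM), and Runx2, the osteoblast transcription factor (382 and 402 CPM), were within 1.5-fold. In tenocyte-like cells 10 of 41 were higher and 4 lower, among them Mmp3 (5.46-fold) and Cxcl12 (2.14-fold) higher and Fstl1 (2.26-fold) lower, in a class whose cluster mix differed by day. These shares can be read beside the backgrounds of 10.4%, 7.66% and 9.83% higher given above for the same classes.

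RANK at day 9 ran from 8.18 to 151 CPM over the myeloid classes with at least 50 cells. Of these, 4 stood together at 147 to 151 CPM, and osteoclast-like cells had the most molecules per cell. The osteoclast-like cluster was led by Mmp9, Mt3, Ctsk, Acp5 and Dcstamp, genes of bone resorption and cell fusion. It had 1801 Tnfrsf11a UMIs in 411 cells, 150 CPM (143 to 157), with a UMI in 94.4% of cells and 438 UMIs per 100 cells. Unnamed cluster 4 (Jdp2, Pcdh7, Chst7, Dnph1 and Dkc1) stood at 151 CPM (143 to 159) and 271 UMIs per 100 cells. Lining-macrophage-like cells (Vsig4, Lyve1, Gpr34, S100b and Folr2, genes of the macrophages that line the joint cavity) stood at 149 CPM (135 to 163) and 90.6 UMIs per 100 cells, and interstitial-macrophage-like cells (Cd163, Lyve1, Retnla, Pf4 and Selenop) at 147 CPM (123 to 175) and 76.5. These 4 levels in CPM do not differ beyond counting error: the ratio of osteoclast-like to lining-macrophage-like cells was 1.01 (0.906 to 1.12).

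The gap in molecules per cell goes with the depth of the cells. The median was 28188 UMIs per osteoclast-like cell, 16652 in cluster 4 and 5324 in lining-macrophage-like cells. At 2000 UMIs per cell the shares with a Tnfrsf11a UMI were 24.1%, 25.6% and 23.5%, against 94.4%, 83.7% and 55.0% unthinned. The part of RNA content or of multiplets in that depth was not tested.

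Below these came migratory-dendritic-like cells (128 CPM, 104 to 154) and cycling cells (113 CPM, 104 to 123), of which the first overlapped the osteoclast-like interval and the second did not. Clusters 8 and 14 (92.1 and 90.9 CPM), interferon-response cells (82.4 CPM), MHC class II macrophage-like cells (81.1 CPM) and Arg1 macrophage-like cells (78.2 CPM) formed a middle group with overlapping intervals. Monocyte-like cells, led by Plac8, Slpi, Thbs1, Saa3 and Hp, had 56.8 CPM (50.3 to 63.9), and osteoclast-like cells were 2.64-fold (2.32 to 3.00) above them. That ratio was 5.34 with doublets removed by score, 5.45 with the stricter cell filter and 6.13 at resolution 2.0, which regroup the cells. Cluster 19 (Alas2 and Bpgm, genes of red cells) had 63.1 CPM (47.8 to 81.7), cluster 5 (Ifitm1, Klrd1, Ffar2, Cd7 and H2-Oa) 44.9 CPM (39.0 to 51.5) in 500 cells and cluster 15 (Mgl2, Mucl1 and Ccl17) 37.1 CPM (24.3 to 54.4). T- and NK-like cells had 41.5 CPM (34.5 to 49.4), neutrophil-like cells 8.18 CPM (3.92 to 15.0) and mast- or basophil-like cells no UMI in 26 cells. The osteoclast marker list summed to 1542 CPM in the T- and NK-like cells and to 28796 CPM in the osteoclast-like cells, and its part in the RANK level of the former was not tested.

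**Figure D5:**
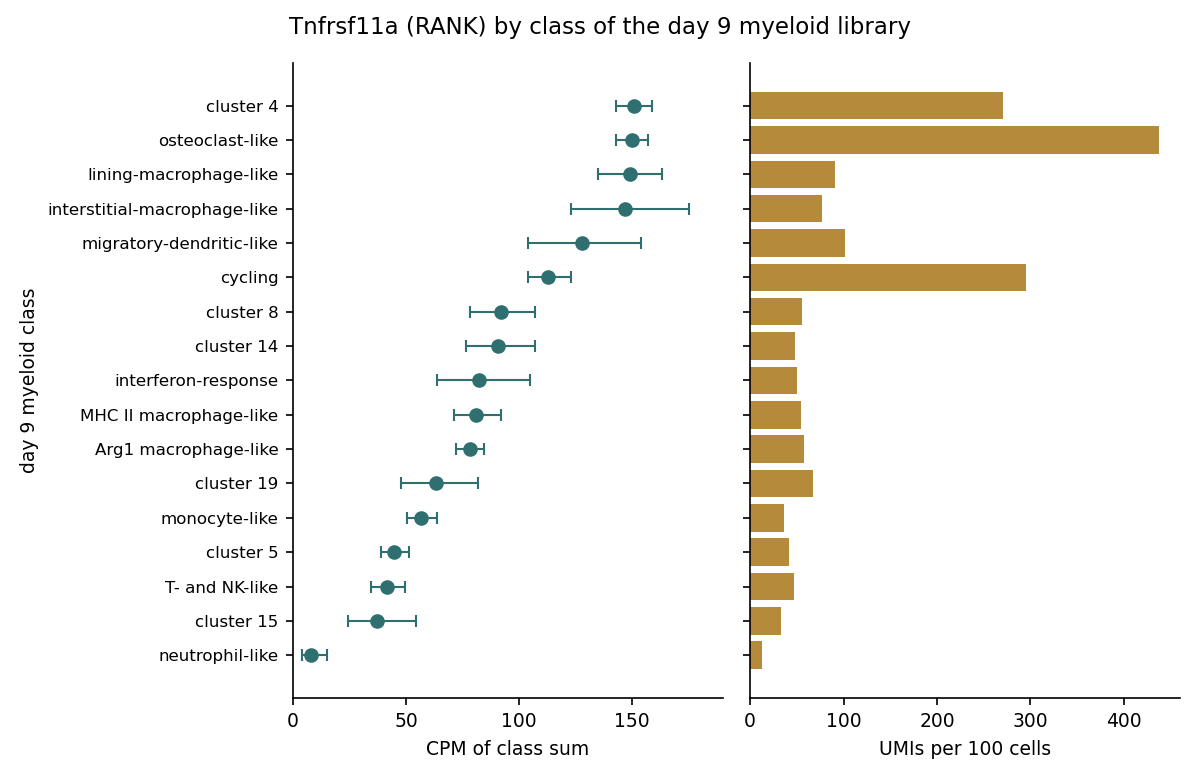
Tnfrsf11a in the day 9 myeloid library by class with at least 50 cells: left, CPM of the class sum with 95% Poisson intervals; right, UMIs per 100 cells. Cluster 4, osteoclast-like, lining-macrophage-like and interstitial-macrophage-like cells lie at 147 to 151 CPM, while osteoclast-like cells have 438 UMIs per 100 cells and lining-macrophage-like cells 90.6.

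Inside the osteoclast-like cells RANK varied little. Sub-clusters led by Mt3 and by cell division genes, by Itgb3, Il10 and Oscar, by Fxyd2 and by Isg15 and Ifit1 stood at 156, 163, 154 and 155 CPM. The fifth, led by Lyz2, Cxcl2 and Il1b, was lower, at 120 CPM (106 to 136), with an interval below those of the other four. Acp5, an osteoclast phosphatase, was at 7241 CPM there and at 6814 to 11869 CPM in the other four.

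The RANK signalling list, from TRAF adaptors to NFATc1 and its co-receptors, was then read in the 3 classes with most RANK. In osteoclast-like cells against all other cells 5 of 28 members were at least 1.5-fold higher and 8 lower, beside 15.8% and 37.2% of 13548 genes, so the list as a whole was near the background. Nfatc1, the master transcription factor of the lineage, was at 752 against 212 CPM (3.55-fold), Oscar, a co-receptor and one of the 10 genes that lead this cluster, at 95.3 against 1.62 CPM, and Src, the kinase needed for the ruffled border, at 161 against 37.6 CPM (4.27-fold). Trem2 (3.58-fold), Ikbkb (2.82-fold) and Fcer1g (2.46-fold) were lower, and Tyrobp, the adaptor DAP12, was at 2008 and 1820 CPM. Tnfrsf11a itself was 1.65-fold higher (1.56 to 1.74).

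In cluster 4 the counts were near or below the all-gene shares. Of the 28 members 4 were higher and 4 lower, beside 12.8% and 30.2% of all genes, with Src (2.63-fold), Nfatc1 (2.14-fold), Mitf (2.06-fold) and Prdm1 (1.96-fold) higher. Of the 12 differentiation and resorption genes none was higher and 3 lower, with Ctsk at 2773 against 2865 CPM and Acp5 at 2606 against 2087 CPM. The other cells, in this comparison and the next, include the osteoclast-like cells, which hold 19.6% of the library's UMIs and are led by genes such as Ctsk and Acp5. These counts therefore do not set cluster 4 against cells that are not osteoclast-like, and that comparison was not made. In lining-macrophage-like cells 4 signalling members were higher and 9 lower, beside 22.4% and 31.1%. Trem2 (4.33-fold) and Csf1r, the receptor of Csf1 (2.91-fold), were higher, and Traf1 (19.3-fold), Prdm1 (10.4-fold) and Nfatc1 (48.5 against 331 CPM, 6.82-fold) were lower. Directly compared in the main setting, osteoclast-like and lining-macrophage-like cells did not differ in RANK level beyond counting error. They differed at 9 signalling members upward and 7 downward of 28, beside 25.8% and 34.1% of 10914 genes. Nfatc1 was 15.5-fold higher in the osteoclast-like cells. The list of resorption genes shares members with the markers that named the osteoclast-like cells, so its 12 of 12 higher there is no result.

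RANK was nearly absent from the stroma. Osteoblast-like and chondrocyte-like cells had no Tnfrsf11a UMI on either day, and other Pdgfra cells had 1 UMI on each day. Blood-endothelial-like cells held 26 of the 27 stromal UMIs at day 0 and 16 of 21 at day 5, with 27.4 CPM (17.9 to 40.1) in 105 cells at day 0 and 14.2 CPM (8.11 to 23.0) in 75 cells at day 5, intervals that overlap. Over both days the endothelial sub-cluster with Prox1 (162 CPM) and Ccl21a, genes of lymphatic vessels, had 48.2 CPM (26.4 to 80.9) from 14 UMIs in 41 cells. Sub-cluster 0, with neither gene, had 35.1 CPM (15.2 to 69.2) from 8 UMIs in 29 cells, and the other 3 had 8.82 to 17.1 CPM. In the day 9 library the 34 endothelial cells had 29 UMIs, with a UMI in 44.1% of cells, and the leukocyte list summed to 3917 CPM in them; its part in the RANK level was not tested.

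The genes most like each member were sought over clusters by Pearson correlation of log2(CPM + 10), as a description over units that share libraries. For Tnfsf11 over 37 stromal cluster and library units these were Emilin1, Timp1 and Ube2ql1 (r = 0.87 each), Tnc (0.86) and Chsy1 (0.84). Timp1 was highest in cluster 22 at day 5 (5989 CPM) and Tnc, a matrix glycoprotein, in osteoblast-like cells at day 0 (506 CPM). For Tnfrsf11b they were Irx3 (0.93), Prss50 (0.91), Susd5 (0.90), Slc29a1 and Hectd2 (0.89 each), all highest in the chondrocyte-like cluster at day 0. For Tnfrsf11a over 19 myeloid clusters they were Slc44a1 (0.93), Spred1 and Abi1 (0.90 each), Sh3glb1 and Clptm1 (0.87 each), of which Slc44a1, Spred1 and Sh3glb1 were highest in the osteoclast-like cluster, at 121, 289 and 581 CPM.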

How the data were processed

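Hind paw cells were profiled with the 10x 3′ single-cell kit in 3 libraries, 1 per group. The deposited UMI counts come, per the file headers, from Cell Ranger 6.0.1, run by the authors on the 10x mm10 reference that the labels give, as matrices filtered to called cells. The submitters' processing notes also name Seurat 4.3.0, without its role in these files. Introns, free RNA and ambient correction are not given in the sources used here.

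Cells passed at 500 genes, 1000 UMIs and 10% mitochondrial UMIs. Depth after the filter was 77030928, 120760403 and 61376205 UMIs at day 0, 5 and 9. Clusters were made with scanpy 1.11.5 and Python 3.11.15 (2000 variable genes, 30 principal components, 15 neighbours, Leiden resolution 1.0, sub-clusters at 0.5). They were named from 30 marker lists. A name needed at least 3 detected markers and markers of the list among the 30 leading genes. Stromal fibroblast-like clusters needed Pdgfra among the detected markers instead of the latter. Names were withheld where another list had more markers among the 10 leading genes, or where haemoglobin UMIs were high. No doublets were removed in the main setting. UMIs were summed per class, with exact Poisson intervals for CPM, conditional binomial intervals for ratios and Clopper-Pearson intervals for shares (95%, scipy 1.17.1). A count of 0 was given a limit of 3 counts. A ratio of 1.5-fold with at least 20 UMIs was used as a size, not a test. Normalization factors from edgeR 4.0.16 and DESeq2 1.42.0 (R 4.3.3) were alternatives, as were other filters, gates, resolutions and thinning. Ratio steps were tested on simulated data.

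The 3 genes, the marker lists and the 6 pathway lists were chosen with earlier results of these data known. Pathway genes are named where a class had at least 50 CPM, up to 4 per list and direction by size of ratio, and 2 per list within 1.5-fold by level. For each member the 5 genes with the highest correlation are named. Sub-cluster genes and clusters 9, 11, 16 and 22 were singled out after their values were seen.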

Additional observations from a re-analysis of the deposited data

Results flagged for a closer look

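The day 5 to day 0 ratio of Tnfsf11 was above 1 in other Pdgfra cells (8.75) and below 1 in osteoblast-like cells (0.714), opposite directions under the same contrast. For Tnfrsf11b the ratio was 1.44 in other Pdgfra cells and 0.463 in tenocyte-like cells. These differences between classes were not tested, since each day has 1 library.

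In the day 9 myeloid library, which the stromal comparisons do not use, both stromal genes exceeded the 3 UMIs that a count of 0 allows in some classes. T- and NK-like cells had 34 Tnfsf11 UMIs, all in the cluster led by Ikzf2, Ctla4, Tnfrsf4 and Il2ra, where 14 of 208 cells had a UMI (12.5 CPM, 8.65 to 17.5). The 25 fibroblast-like cells had 6 Tnfsf11 and 15 Tnfrsf11b UMIs. Tnfrsf11b UMIs of 3 other classes lay in 1 cell each: 19 in cycling cells, 10 in migratory-dendritic-like cells and 4 in T- and NK-like cells. Osteoclast-like cells had 29 in 10 cells.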

How the results depend on the processing

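Of 169 alternatives to 21 results, 126 stayed within the counting interval or 1.5 times the count, 42 moved beyond it and 1, a ratio of at least 1.5-fold either way, changed direction; the cause was not tested. Of the moved day 5 to day 0 ratios that were within 1.5-fold, 4 also crossed 1. These were Tnfrsf11b in other Pdgfra cells (single-gene gates, and without clusters 11, 16 and 22) and osteoblast-like cells (single-gene gates), and Tnfsf11 in osteoblast-like cells (thinned). The ratio of Tnfsf11 to Tnfrsf11b UMIs in other Pdgfra cells at day 5 crossed 1 too, from 1.01 to 0.555 (0.493 to 0.624, single-gene gates). Unless named, values are day 5 to day 0 ratios, and "RANKL to osteoprotegerin" is the UMI ratio. With the looser filter the Tnfrsf11b ratio of tenocyte-like cells turned to 1.04, and RANK in osteoclast-like over lining-macrophage-like cells was 1.13 (1.03 to 1.25). With the stricter filter Tnfrsf11b in other Pdgfra cells was 1.93, RANKL to osteoprotegerin 0.110 (day 0) and 0.0777 (day 5) in osteoblast-like and 6.23 in Saa3-high cells, and RANK in osteoclast-like over monocyte-like cells 5.45. With doublets removed by score, Tnfrsf11b was 1.73 in other Pdgfra and 0.667 in tenocyte-like cells, RANKL to osteoprotegerin in osteoblast-like cells at day 0 was 0.112, osteoclast-like over monocyte-like RANK 5.34, and 5 in place of 10 list members were higher in tenocyte-like cells. At resolution 0.5, Tnfsf11 in other Pdgfra cells was 17.1, their RANKL to osteoprotegerin at day 0 0.0863 and osteoclast-like over monocyte-like RANK 2.32; at resolution 2.0 the last was 6.13 and Tnfrsf11b in tenocyte-like cells 0.771. At a Saa3 gate of 2, RANKL to osteoprotegerin of Saa3-high cells was 2.28. With classes gated on single genes, Tnfsf11 was 4.45 and Tnfrsf11b 0.834 in other Pdgfra cells, Tnfrsf11b 0.760 in Ibsp cells and 0.378 in Fmod cells, and RANKL to osteoprotegerin 0.0788 and 0.0790 in Ibsp cells and 0.104 and 0.555 in other Pdgfra cells at day 0 and 5. As a mean of each cell's CPM, Tnfsf11 was 5.47 in other Pdgfra cells and 6.37 in Saa3-high over other Pdgfra cells, Tnfrsf11b 1.89 in other Pdgfra and 1.13 in osteoblast-like cells, and osteoclast-like over monocyte-like RANK 3.02. Thinned to 2000 UMIs, Tnfsf11 was 4.71 in other Pdgfra and 1.01 in osteoblast-like cells and 8.10 in Saa3-high over other Pdgfra cells, Tnfrsf11b 0.560 in tenocyte-like cells and osteoclast-like over monocyte-like RANK 3.06. At a count minimum of 50, 1 in place of 2 list members was lower in osteoblast-like cells. Chosen after seeing the data: without clusters 11, 16 and 22 the other Pdgfra ratios were 1.29 (Tnfsf11) and 0.508 (Tnfrsf11b), without sub-cluster 6 Tnfsf11 in osteoblast-like cells was 0.537, with equal weight per sub-cluster Tnfrsf11b there was 1.18, and Tnfrsf11b in tenocyte-like cells was 0.598 without cluster 0 and 0.633 without cluster 3. The stricter filter and resolution 0.5 gave no lining-macrophage class. No paired analysis was possible because each group has 1 library, and no replicate could be left out.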
